A study of Homo sapiens with 6 samples.

Results

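The genes described here are 10 inflammatory mediators and regulators whose mRNA was sequenced in SW1353, a human cell line derived from a chondrosarcoma, a cartilage-forming tumour. They are the IL-6-type cytokines IL6, IL11 and LIF, the chemokines CXCL8, CXCL1 and CCL2, the cytokine IL1B, complement C3, and the NF-κB genes NFKB1 and NFKBIA. They were chosen by name, with earlier results of these data known, and each matched 1 of the 60691 genes in the count table. Of the 10, 8 passed the filter on low counts, and IL1B and CXCL1 did not. A group of 3 libraries came from cells given lentivirus with shfirefly, a hairpin against an insect luciferase, and a group of 3 from cells given lentivirus with shSIRT1. Both groups were seeded and then held under 3% oxygen for 48 h, so the controls were hypoxic as well. The design text calls the 3 samples of a group biological replicates. Sample names and treatment labels name SIRT1 as the target of the hairpin, while the treatment protocol names EPAS1, the gene of HIF-2α. The cells are 1 tumour line, and the labels give 1 hairpin per group without its sequence.

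The hairpin's named targets were both lower in the shSIRT1 libraries. SIRT1 stood at 13.6 ± 0.953 CPM (CPM is a gene's count relative to the scaled size of its library) against 24.9 ± 0.984 CPM in shfirefly, and EPAS1 at 233 ± 10.5 against 456 ± 40.8 CPM (SD, n = 3). Their log2 fold changes, shSIRT1 over shfirefly, were -0.88 ± 0.07 SE and -0.97 ± 0.06 SE (edgeR adjusted p = 2.3e-09 and 5.8e-07). Total counts were 24993064 to 32044191 per library, so 3 counts, the most that a count of 0 allows for counting error alone, came to 0.0968 to 0.115 CPM. Of 10 leukocyte and macrophage markers 1 reached a mean of 1 CPM (CSF1R, the receptor of macrophage colony-stimulating factor), MS4A1 had no counts, and the general leukocyte marker PTPRC had 8 counts in shfirefly and 4 in shSIRT1. Their summed level was 13.3 to 15.6 CPM in shfirefly and 6.46 to 9.03 CPM in shSIRT1, nearly all of it CSF1R (13.6 ± 1.12 and 7.27 ± 1.08 CPM; SD, n = 3), and the part of this and of the other marker sums in the results below was not tested. Of 10 cartilage markers 3 reached 1 CPM (SOX9, MATN3 and ACAN), and COL9A1 had no counts. Of the 4 that could be tested, SOX9 and MATN3 were called higher in shSIRT1 and ACAN and PRG4 lower. The cartilage collagen COL2A1 had 3 counts in shfirefly and 30 in shSIRT1, 19 of them in replicate 2. The summed cartilage level was 47.4 to 53.3 CPM in shfirefly and 58.1 to 60.8 CPM in shSIRT1, and that of 5 epithelial markers 308 to 319 and 356 to 373 CPM. Of these 5, only KRT18 and KRT8 reached 1 CPM, and EPCAM, CDH1 and KRT19 did not. KRT18 had means of 253 and 304 CPM (edgeR adjusted p = 1.9e-06). KRT8 had 60.1 and 58.0 CPM and did not pass the test (edgeR adjusted p = 0.37). Of 5 mesenchymal markers 4 reached 1 CPM, and their sum was 13046 to 13979 CPM in shfirefly and 10266 to 10322 CPM in shSIRT1. Fewer cells making a transcript and less of it per cell cannot be told apart in such bulk libraries.

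NF-κB is a family of transcription factors that inhibitory IκB proteins hold in the cytoplasm. Signals from the IL-1 and TNF receptors activate IκB kinase, the inhibitor is degraded, and the released dimers switch on cytokine, chemokine and adhesion genes together with the genes of their own inhibitors. SIRT1 is known to deacetylate the NF-κB subunit RelA, and HIF-2α is known in cartilage as an inducer of catabolic and inflammatory genes. IL-6-type cytokines signal through gp130, encoded by IL6ST, to JAK kinases and STAT3. Chemokines recruit leukocytes, and C3 is the protein on which the complement pathways meet.

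RefSeq promoter windows (GRCh38.p14, 250 bases before to 50 after a gene's start) were found for 7 of the 10 genes, CXCL8, CXCL1, IL6, IL11, IL1B, NFKB1 and NFKBIA, with 2 windows for NFKB1. A subset of 4 windows is printed because it sets a κB-type match beside a gene that fell strongly (IL6), a further gene that fell (CXCL8), a gene with almost no reads (CXCL1) and the gene that rose (NFKB1). Capitals mark bases that match the NF-κB consensus or its shorter form GGNNTTTCC on either strand, and both forms overlap at 4 of the 7 such stretches over all windows. Windows are, in the order printed, chr7:22726950-22727249, chr4:73740319-73740618, chr4:73869143-73869442 and chr4:102501109-102501408, all on the forward strand.
IL6: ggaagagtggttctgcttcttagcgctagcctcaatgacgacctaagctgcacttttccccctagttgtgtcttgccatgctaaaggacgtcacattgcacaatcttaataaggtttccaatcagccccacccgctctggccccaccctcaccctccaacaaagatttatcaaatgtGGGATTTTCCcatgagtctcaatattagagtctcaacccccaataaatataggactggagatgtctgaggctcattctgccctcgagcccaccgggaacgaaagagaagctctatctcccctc
CXCL8: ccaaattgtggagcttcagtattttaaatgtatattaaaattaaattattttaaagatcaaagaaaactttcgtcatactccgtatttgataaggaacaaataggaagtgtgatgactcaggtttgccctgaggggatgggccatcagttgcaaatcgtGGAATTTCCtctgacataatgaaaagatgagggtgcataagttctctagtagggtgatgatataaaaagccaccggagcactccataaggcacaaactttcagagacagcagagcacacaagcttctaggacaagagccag
CXCL1: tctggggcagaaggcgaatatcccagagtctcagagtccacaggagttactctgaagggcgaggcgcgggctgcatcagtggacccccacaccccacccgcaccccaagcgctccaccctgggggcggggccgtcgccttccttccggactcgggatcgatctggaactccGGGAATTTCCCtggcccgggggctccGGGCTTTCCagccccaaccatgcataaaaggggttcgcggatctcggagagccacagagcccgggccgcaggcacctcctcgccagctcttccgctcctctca
NFKB1: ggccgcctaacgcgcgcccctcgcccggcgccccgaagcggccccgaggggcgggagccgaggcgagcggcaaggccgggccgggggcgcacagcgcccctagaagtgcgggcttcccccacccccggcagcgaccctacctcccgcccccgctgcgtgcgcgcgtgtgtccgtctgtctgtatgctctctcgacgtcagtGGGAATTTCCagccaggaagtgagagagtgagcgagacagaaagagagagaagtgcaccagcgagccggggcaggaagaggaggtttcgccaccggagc

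In IL6 the match lies 73 to 64 bases before the start. CXCL8 carries only the shorter form, at 91 to 83 bases before the start, with an AP-1-type match (TGANTCA) further upstream. CXCL1 holds 2 separate stretches and NFKB1 1. The NF-κB consensus was found in 4 of the 8 windows, those of 4 genes, and in 11.3% of all 35116 promoter windows. The form GGNNTTTCC was found in 5 of the 8 windows, those of 5 genes, and in 6.3% of all windows. The 5 genes are CXCL1, CXCL8, IL6, NFKB1 and NFKBIA, of which 2 fell, 1 rose, 1 did not pass the test and 1 was not tested. IL11 held the AP-1 form alone (7.7% of all windows), and IL1B the STAT form TTCNNNGAA alone (7.7% of all windows). The core hypoxia response letters ACGTG were in none of the 7 genes' windows and in 21.4% of all windows. A match is a description of letters, not of binding.

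**Figure D1:**
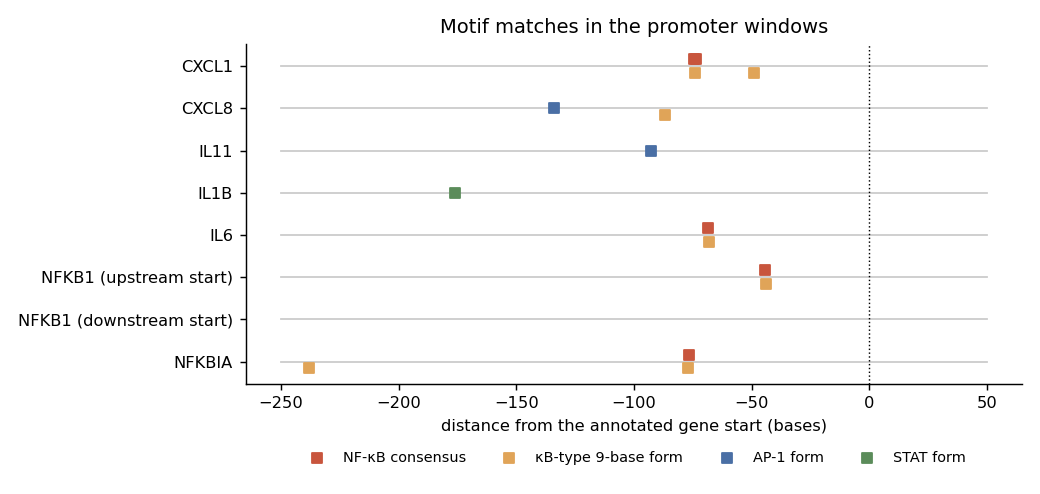
Positions of motif matches in the 8 promoter windows of 7 genes; the x axis is the distance in bases from the annotated gene start, each grey line is a window and each square the centre of a match. κB-type squares appear in CXCL1, CXCL8, IL6, NFKBIA and the upstream window of NFKB1, and in none of IL11 and IL1B.

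Across the 8 tested genes, 4 fell in shSIRT1 (IL6, C3, CXCL8 and IL11), 1 rose (NFKB1), and LIF, CCL2 and NFKBIA did not pass the test. Over all 16591 genes tested, 26.0% fell and 26.8% rose at the same threshold, an adjusted p under 0.05 in edgeR's quasi-likelihood test. The median log2 fold change was -0.32 over the 8 and 0.00 over all genes tested. With a filter at 1 CPM in 3 libraries, which removed IL6, these medians were -0.05 and 0.01. Both directions together made 5 of 8 genes, against 52.8% of all genes tested. IL6, C3 and CXCL8 fell at least 2-fold, as did 4.26% of all genes tested. The libraries of the groups were fully apart for 6 of the 8, against 59.7% of all genes tested. Of these, 4 were lower in shSIRT1 (29.4% of all genes tested) and 2, NFKB1 and NFKBIA, higher (30.4% of all genes tested). Together the 10 genes took 0.0117% ± 0.000170 of the counts in shfirefly and 0.0120% ± 0.000384 in shSIRT1 (n = 3, ± SD; p = 0.300 in a two-sided exact permutation test, where 0.1 is the smallest value that 3 against 3 allows). The difference turned from 0.000302 to -0.000981 percentage points when NFKB1, the gene with the most counts among them, was left out. Over TMM-scaled library sizes the difference was -0.000701 (both at the smallest p of the exact permutation test). Without shSIRT1 replicate 3 the difference over all 10 genes was 8.14e-05. With both NFKB1 and NFKBIA left out, the rest held 1805, 1567 and 1690 counts in shfirefly before scaling. In shSIRT1 they held 1214, 1169 and 1045 counts, and this difference was not tested.

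**Figure D2:**
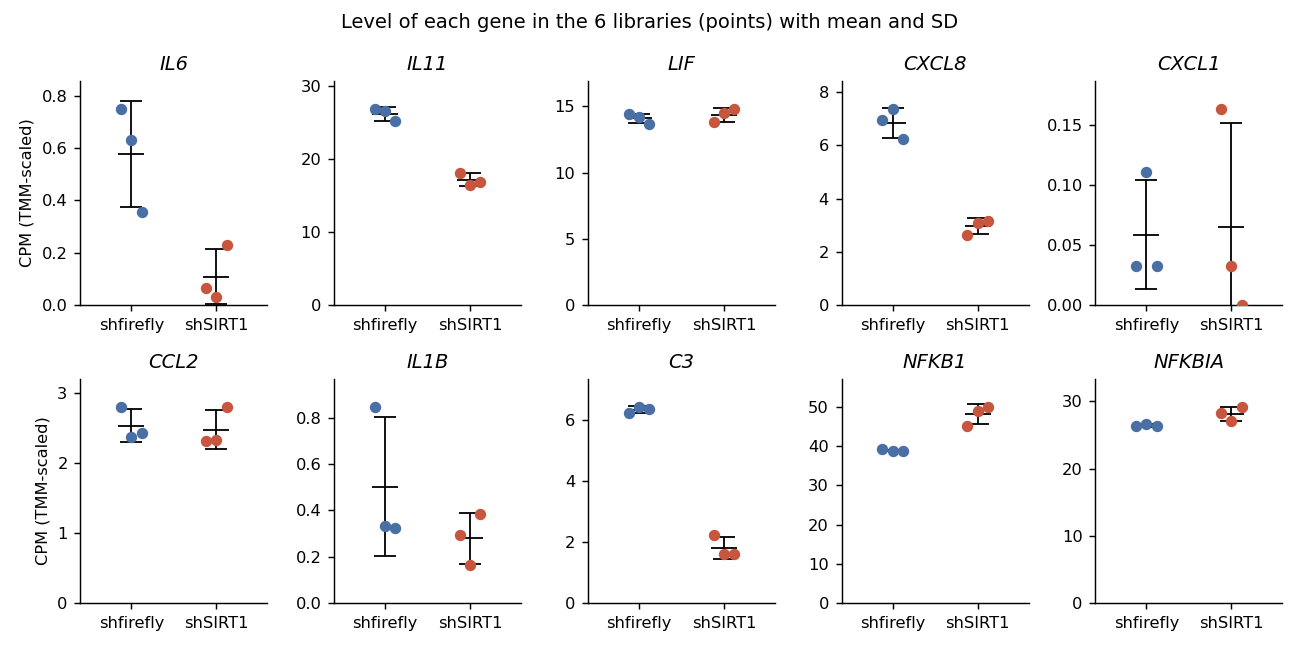
Level of each gene in CPM (y axis, starting at 0, scaled per panel) in the 3 shfirefly and 3 shSIRT1 libraries; points are libraries, the black dash and bar are the mean and SD, cut at 0 where they reach below it. The points of the groups are apart for IL6, IL11, CXCL8, C3, NFKB1 and NFKBIA and mixed for LIF, CXCL1, CCL2 and IL1B.

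Of the 3 IL-6-type cytokines IL6 and IL11 fell and LIF did not pass the test. IL6, the acute-phase cytokine that names the family, was rare, with 23, 17 and 11 counts in shfirefly replicates 1 to 3 and 2, 1 and 6 counts in the shSIRT1 replicates. The lowest shfirefly library still held more IL6 than the highest shSIRT1 library. In CPM the means were 0.578 ± 0.202 and 0.109 ± 0.105 (SD, n = 3), a log2 fold change of -2.43 ± 0.57 SE (adjusted p = 0.0011, edgeR quasi-likelihood test). The ratio of summed counts was 0.179, with an exact 95% interval of 0.0774 to 0.367 that covers counting error only. Replicate 3 was the lowest IL6 library in shfirefly and the highest in shSIRT1. IL6 lies on the forward strand of chromosome 7, at 22725884 to 22732002 (GRCh38, GENCODE 29), across from 2 genes on the other strand, STEAP1B and AC073072.1, and the strand setting of the counting is not given in the sources used here. Leaving out shSIRT1 replicate 3 moved IL6 to -3.45 on the log2 scale, and leaving out both libraries numbered 3 moved it to -3.71.

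IL11, a gp130 cytokine made by mesenchymal cells, was the most abundant cytokine of the set. Its counts were 823, 717 and 779 in shfirefly and 555, 502 and 443 in shSIRT1, with no overlap between the groups after scaling (25.1 to 26.8 against 16.4 to 18.1 CPM). IL11 fell 1.53-fold (log2 fold change -0.61 ± 0.07 SE, adjusted p = 1.6e-07, edgeR). Its gene lies on the reverse strand of chromosome 19, at 55364389 to 55370463 in the same annotation. LIF, the leukaemia inhibitory factor, stood at 14.4, 14.2 and 13.7 CPM in shfirefly and 13.8, 14.5 and 14.8 CPM in shSIRT1. The libraries of the groups overlapped, and the log2 fold change of LIF was 0.03 ± 0.08 SE (adjusted p = 0.79, edgeR). The ratio of LIF counts was 1.02 (exact 95% interval 0.941 to 1.10, counting error only). LIF overlaps LIF-AS1 and AC004264.1 on the other strand.

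Among the chemokines CXCL8 fell, CCL2 did not pass and CXCL1 was too rare to test. CXCL8, or interleukin-8, which attracts neutrophils, had 213, 199 and 193 counts in shfirefly and 81, 95 and 83 in shSIRT1. All shSIRT1 libraries were below all shfirefly libraries, at 2.64 to 3.17 CPM against 6.23 to 7.36 CPM. That was a 2.30-fold fall (log2 fold change -1.20 ± 0.13 SE, adjusted p = 1.3e-07, edgeR). CXCL8 lies on the forward strand of chromosome 4, at 73740506 to 73743716 (GRCh38, GENCODE 29). CCL2, or MCP-1, which attracts monocytes, had 86, 64 and 75 counts in shfirefly and 71, 71 and 73 in shSIRT1, so its libraries overlapped. The log2 fold change of CCL2 was -0.04 ± 0.17 SE (adjusted p = 0.87, edgeR), and the ratio of its counts was 0.969 (exact 95% interval 0.800 to 1.17, counting error only). CXCL1, a neutrophil chemokine like CXCL8, was barely detected. It had 1, 3 and 1 counts in shfirefly and 5, 1 and 0 in shSIRT1, a ratio of 1.22 with an interval of 0.309 to 5.04, which leaves its direction undetermined at this depth. The ratio of CXCL1 was 0.312 without shSIRT1 replicate 1 and 2.12 without shfirefly replicate 2. CXCL1 has close paralogs in CXCL2 and CXCL3, with 3 and 0 counts over all libraries, and reads shared between them may have been lost or split in counting.

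IL1B, the inflammatory cytokine interleukin-1β, had 26, 9 and 10 counts in shfirefly and 9, 5 and 10 in shSIRT1. A single library, shfirefly replicate 1, stood above the rest, and the other 5 overlapped. The ratio of IL1B counts was 0.541 (exact 95% interval 0.315 to 0.907, counting error only), and 0.838 (0.440 to 1.62) without shfirefly replicate 1. Without shSIRT1 replicate 2 it was 0.659, and the interval again reached past 1 (0.364 to 1.15). It was not tested in the fit across genes because it did not pass the count filter.

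C3 fell in every shSIRT1 library. Its counts were 191, 174 and 197 in shfirefly and 68, 49 and 42 in shSIRT1, or 6.22 to 6.44 CPM against at most 2.22 CPM. The shfirefly libraries lay close together and far above the others. The fall was 3.49-fold (log2 fold change -1.80 ± 0.15 SE, adjusted p = 2.7e-09, edgeR). C3 lies on the reverse strand of chromosome 19, at 6677704 to 6730562 on GRCh38 in GENCODE 29, and its span overlaps 2 annotated genes on the same strand, AC008760.2 and GPR108, whose reads may be shared with it.

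Of the NF-κB genes NFKB1 rose and NFKBIA did not pass the test. NFKB1, which encodes p105, the precursor of the p50 subunit, stood at 39.2, 38.9 and 38.8 CPM in shfirefly and at 45.3, 49.1 and 50.1 CPM in shSIRT1. All shSIRT1 libraries were higher, and NFKB1 rose 1.23-fold (log2 fold change 0.30 ± 0.05 SE, adjusted p = 4.8e-05, edgeR). NFKB1 spans positions 102501329 to 102617302 on the forward strand of chromosome 4 in the same annotation. NFKBIA, which encodes the inhibitor IκBα and is itself induced by NF-κB, stood at 26.4, 26.7 and 26.3 CPM in shfirefly and at 28.2, 27.1 and 29.2 CPM in shSIRT1. The shSIRT1 libraries were again the higher ones, but by little, and NFKBIA did not pass the test (log2 fold change 0.09 ± 0.06 SE, adjusted p = 0.22, edgeR). NFKBIA passed it with scaling by library totals alone, which moved the median of all genes tested to 0.13 (log2 fold change 0.21, adjusted p = 0.0057), and with an offset for GC content and length (0.15, adjusted p = 0.046).

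**Figure D3:**
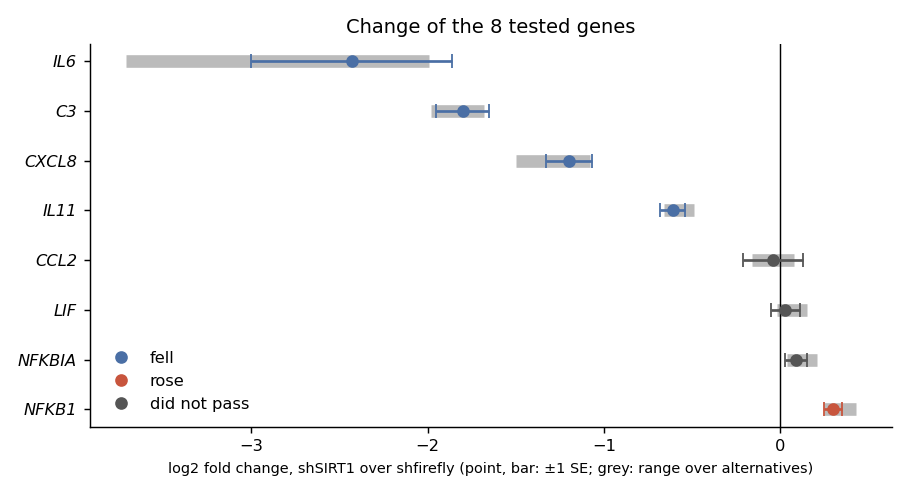
Log2 fold change of the 8 tested genes, shSIRT1 over shfirefly (x axis); points with bars are the estimate and 1 SE, and grey bars span the lowest and highest value over the alternative settings. IL6, C3, CXCL8 and IL11 lie below 0 over their whole grey range and NFKB1 above it, from 0.25 to 0.43, while LIF and CCL2 straddle 0.

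In the authors' deposited table IL6, CXCL8, C3 and IL11 also have negative log2 fold changes (-2.45, -1.21, -1.81 and -0.61), with adjusted p-values of 0.0062, 5.5e-10, 1.6e-16 and 1.2e-10. The authors' deposited table gives NFKB1 a value of 0.30 (adjusted p = 3.2e-05) and lists no adjusted p for CXCL1. For IL1B, which did not pass the count filter here, it gives -0.85 (adjusted p = 0.34).

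The levels of the 10 genes were compared with each other per kilobase of annotated exon. In shfirefly the order was NFKBIA (11.2 ± 0.105 CPM per kb), IL11 (9.79 ± 0.335), NFKB1 (6.23 ± 0.0334), LIF (3.55 ± 0.0936), CXCL8 (3.01 ± 0.252), CCL2 (1.27 ± 0.119), C3 (0.761 ± 0.0131), IL6 (0.279 ± 0.0977), IL1B (0.162 ± 0.0968) and CXCL1 (0.0452 ± 0.0350; SD, n = 3). Neighbours in this order had separate library ranges from NFKBIA down to IL6, whereas IL6 overlapped IL1B. Per length of the longest transcript CXCL8 (4.01 CPM per kb) stood above LIF (3.55), so the order of that pair turned with the length used. In shSIRT1 NFKB1 (7.70 ± 0.401 CPM per kb) stood above IL11 (6.41 ± 0.328), and C3 (0.217 ± 0.0426) was the last gene clear of the 3 rare ones. IL6, IL1B and CXCL1 overlapped each other in shSIRT1, at 0.0527 ± 0.0509, 0.0903 ± 0.0356 and 0.0503 ± 0.0665 CPM per kb (SD, n = 3).

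**Figure D4:**
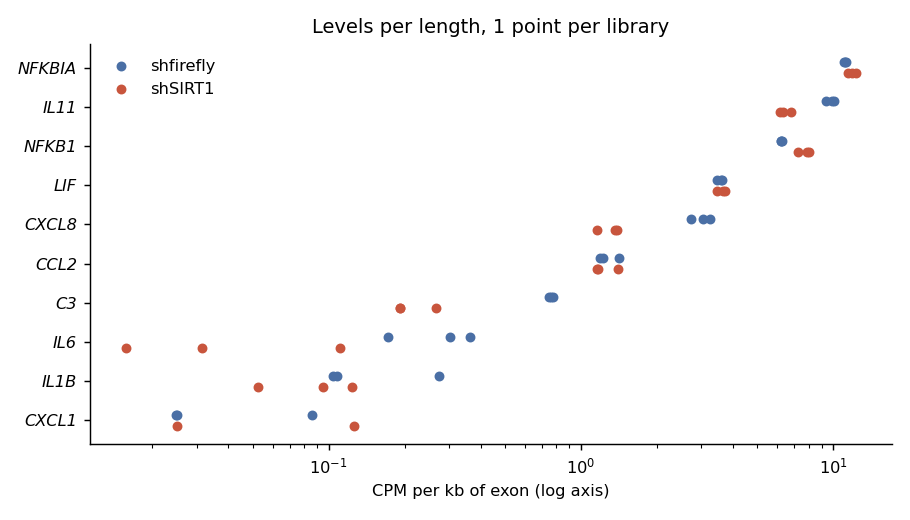
Level of each gene in CPM per kilobase of exon (log x axis), 1 point per library, blue for shfirefly and red for shSIRT1; a shSIRT1 library with no CXCL1 count is not drawn. NFKBIA, IL11 and NFKB1 lie highest, and IL6, IL1B and CXCL1 lowest.

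The pathway genes around these 10 were read from 9 lists, with 202 genes in all, of which 137 were tested. The lists were written by role but with earlier results of these data known, so their shares are a description only. Without the 10 genes themselves, 59 of 129 tested pathway genes fell (45.7%) and 31 rose (24.0%), with a median log2 fold change of -0.21. Over all 16591 genes tested 26.0% fell and 26.8% rose, with a median of 0.00, and these shares also stand beside each list below. With the 10 genes included, 63 of 137 fell (46.0%) and 32 rose (23.4%). Scaling by library totals alone, which moved the median of all genes tested to 0.13, gave 50 that fell (36.5%) and 42 that rose (30.7%), where 18.2% of all genes tested then fell and 37.5% rose.

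Among the IL-6 family ligands and receptors 14 genes were tested, with a median of -0.29: 7 were called lower, 1 higher and 6 neither. OSMR, the oncostatin M receptor subunit that pairs with gp130, fell from 766 ± 34.4 to 481 ± 12.4 CPM (n = 3, ± SD; edgeR adjusted p = 6.1e-12). The ligand cardiotrophin-1 (CTF1) fell from 10.3 ± 1.38 to 6.51 ± 0.728 CPM (n = 3, ± SD; edgeR adjusted p = 5e-05). IL11RA, the receptor of IL11, fell along with its ligand, from 4.66 ± 0.264 to 3.15 ± 0.347 CPM, and was chosen after its values were seen (n = 3, ± SD; edgeR adjusted p = 0.0022). IL11RA overlaps 2 genes on the same strand. The receptor genes IL6R and LIFR, also chosen after their values were seen, did not pass. Their log2 fold changes were 0.19 and 0.39 (edgeR adjusted p = 0.075 and 0.059). The ligand CLCF1 rose by 0.21 on the log2 scale (adjusted p = 0.041, edgeR), a call lost under 7 of 16 alternatives, among them leaving out shfirefly replicate 1 or 3 or shSIRT1 replicate 2 or 3, with adjusted p up to 0.26. IL6ST itself had 260.2 ± 46.1 and 328 ± 39.8 CPM and did not pass (n = 3, ± SD; edgeR adjusted p = 0.18).

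Downstream of these receptors 5 of 14 tested JAK-STAT3 genes fell and 6 rose, with a median of 0.11, and without shSIRT1 replicate 1 the number that rose was 3. The genes that fell the most were the STAT3-inducible repressor BCL6 (log2 fold change -0.78 ± 0.06 SE), the kinase gene PIM1 (-0.47 ± 0.05 SE) and SOCS3, the feedback inhibitor of gp130 signalling (-0.25 ± 0.05 SE). The phosphatase gene PTPN11 rose by 0.32 ± 0.04 SE, and JAK2 rose by 0.34 ± 0.12 SE. The JAK2 call was lost under 5 of 16 alternatives, among them leaving out shfirefly replicate 1 or 2 and shSIRT1 replicate 1 or 3, with adjusted p up to 0.24 (edgeR).

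Of 23 chemokine genes 6 had enough counts for a test, with a median of -0.62. In this list 4 genes fell, none rose, and CCL2 and CCL26 did not pass. CCL28, a mucosal chemokine, had a log2 fold change of -0.75 ± 0.09 SE (adjusted p = 2.2e-07, edgeR). CXCL14, chosen after its values were seen, had 98 counts in shfirefly and 14 in shSIRT1 (log2 fold change -2.75, adjusted p = 1.5e-05, edgeR). CXCL16 fell from 3.18 ± 0.870 to 2.26 ± 0.149 CPM (n = 3, ± SD; edgeR adjusted p = 0.037), a call lost under 8 of 16 alternatives, among them leaving out shfirefly replicate 2 or any 1 shSIRT1 library, with adjusted p up to 0.31. Among 5 tested chemokine receptors 2 fell and none rose, with a median of -0.26. CXCR4, the CXCL12 receptor, fell from 42.6 ± 1.62 to 25.8 ± 1.12 CPM (n = 3, ± SD; edgeR adjusted p = 1e-09), and ACKR3, the other CXCL12 receptor, fell by 0.23 on the log2 scale. The ACKR3 call was lost without shfirefly replicate 2 and with library totals alone (adjusted p up to 0.19, edgeR). The CXCL8 receptor genes CXCR1 and CXCR2 had 0 counts and 7 counts over the 6 libraries.

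**Figure D5:**
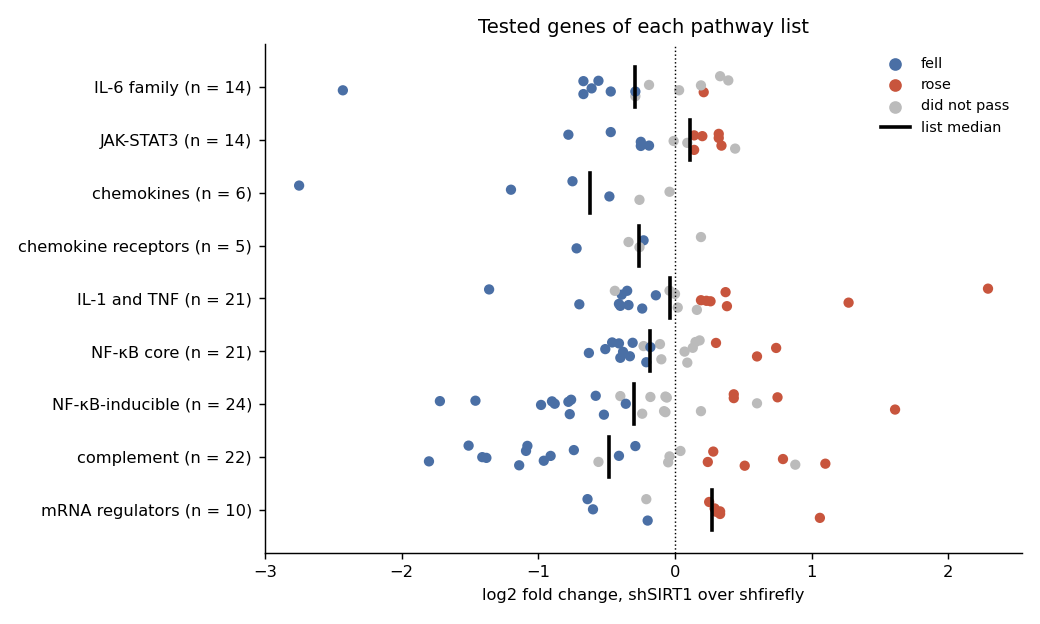
Log2 fold change of each tested gene (x axis, shSIRT1 over shfirefly) in 9 pathway lists, with the number tested beside each name; blue points fell, red points rose, grey points did not pass, and black bars are list medians. Medians run from -0.62 for chemokines to 0.27 for the RNA-binding regulators of cytokine mRNA.

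In the list of IL-1 and TNF ligands, receptors and adaptors 9 of 21 tested genes fell and 7 rose, with a median of -0.04. With library totals alone the median was 0.08, and that of all genes tested was 0.13. TNF had 2 counts in each group and IL1A had 4 and 3, and no library held more than 3 counts of either of these NF-κB-activating ligands. IL1RAP, the signalling partner of the IL-1 receptor, fell from 67.9 ± 5.38 to 26.4 ± 1.59 CPM (n = 3, ± SD; edgeR adjusted p = 5.1e-13). TNFRSF1B, a TNF receptor, had a log2 fold change of -0.70 ± 0.07 SE. The inflammasome sensor gene NLRP3 had one of -0.41 ± 0.13 SE, a call that was lost under 4 of 16 alternatives, among them leaving out shSIRT1 replicate 3 (adjusted p up to 0.11, edgeR). IL18, a cytokine of the IL-1 family, rose from 35 to 170 counts, or 0.389 ± 0.227 to 1.94 ± 0.122 CPM (n = 3, ± SD; edgeR log2 fold change 2.29 ± 0.32 SE, adjusted p = 3e-06). The adaptor genes TRAF5 (log2 fold change 1.27 ± 0.28 SE) and TRAF2 (0.38 ± 0.07 SE) also rose. IL18 had 20 of its 35 shfirefly counts in replicate 1, and its log2 fold change was 2.88 without that library. For TRAF5 it was 1.87 without both libraries numbered 3.

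Among 21 NF-κB subunits, IκB proteins and kinases 10 fell, 3 rose and 8 did not pass, with a median of -0.18. Of the 5 subunit genes 3 fell and 2 rose. RELA, the main activating subunit, fell from 106 ± 5.18 to 77.0 ± 4.25 CPM (n = 3, ± SD; edgeR adjusted p = 4.9e-08), while REL rose with NFKB1. NFKB2 fell by 0.31 on the log2 scale (adjusted p = 0.00064, edgeR) and RELB by 0.38 (adjusted p = 0.043, edgeR), both chosen after their values were seen. REL rose by 0.60 ± 0.19 SE on the log2 scale, a call lost under 4 of 16 alternatives, among them leaving out shSIRT1 replicate 3 (adjusted p up to 0.16, edgeR). The IκB kinase gene CHUK had the largest rise of the list (log2 fold change 0.74 ± 0.06 SE). The feedback inhibitors TNFAIP3, or A20 (-0.63 ± 0.06 SE), and TNIP1 (-0.51 ± 0.04 SE), both NF-κB-inducible, fell. With library totals alone 6 genes of this list fell (28.6%) and 8 rose (38.1%), where 18.2% of all genes tested fell and 37.5% rose. The median of the list was then -0.06 and that of all genes tested 0.13. With the offset for GC content and length 6 rose, where 3864 of 16435 genes tested rose, and the medians were -0.12 and -0.03.

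Among 24 other tested NF-κB-inducible genes, 11 were called lower, 4 higher and 9 neither, with a median of -0.30. ICAM1, a leukocyte adhesion molecule, fell from 5.36 ± 0.401 to 1.61 ± 0.269 CPM (n = 3, ± SD; edgeR adjusted p = 1.2e-08). MMP9, a gelatinase, and PTGES, the inducible prostaglandin E synthase, had log2 fold changes of -1.46 ± 0.29 and -0.98 ± 0.13 SE. The genes that rose the most were PTX3, a soluble pattern-recognition protein related to the acute-phase pentraxins (1.61 ± 0.30 SE), IL7R, the interleukin-7 receptor (0.75 ± 0.04 SE), and TNFAIP2 (0.43 ± 0.05 SE).

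Of 22 tested complement genes, C3 among them, 12 were called lower, 5 higher and 5 neither, and the median was -0.48. SERPING1, the C1 inhibitor, fell from 54.2 ± 3.53 to 19.1 ± 0.617 CPM (n = 3, ± SD; edgeR adjusted p = 3.2e-14). C4A, which follows C1 in the classical pathway, fell from 3.14 ± 0.305 to 1.22 ± 0.293 CPM (n = 3, ± SD; edgeR adjusted p = 7.5e-06), but C4A and C4B are near-identical copies and their split of reads is uncertain. C1R and C1S, the C1 proteases, and C3AR1, the receptor of the fragment C3a, were chosen after their values were seen. Their log2 fold changes were -1.09, -0.91 and -1.08, with adjusted p of 3.6e-05 or lower (edgeR). The complement regulator genes CD55 and CLU were chosen in the same way and rose by 0.28 and 0.24 on the log2 scale (adjusted p = 0.0052 and 6e-05, edgeR). CD46 and CD59, regulator genes chosen likewise, fell, with log2 fold changes of -0.29 and -0.41 (adjusted p = 1.3e-06 and 3.7e-09, edgeR). They were more abundant than CD55, at 248 and 582 CPM in shfirefly against 13.6 CPM. The components of the terminal pathway C7 (27.9 ± 0.897 to 59.7 ± 2.58 CPM) and C5 (5.25 ± 0.253 to 9.07 ± 0.243 CPM) rose, as did C1QBP (98.7 ± 6.44 to 141 ± 5.24 CPM; n = 3, ± SD; edgeR adjusted p of 1.8e-06 or lower). CFB, the protease partner of C3 in the alternative pathway, had 5 and 4 counts.

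Cytokine mRNAs are also controlled by RNA-binding proteins that mark them for decay or protect them, many of them through AU-rich sequences. Of 10 genes of such regulators 6 rose and 3 fell, with a median of 0.27. With the offset for GC content and length 3 rose, and the median was 0.03 where that of all genes tested was -0.03. ZFP36, or tristetraprolin, which speeds decay, fell from 35.8 ± 2.16 to 23.5 ± 1.01 CPM, and its relative ZFP36L1 fell by 0.64 ± 0.04 SE on the log2 scale. A further relative, ZFP36L2, rose from 10.6 ± 0.430 to 22.1 ± 1.63 CPM (n = 3, ± SD; edgeR adjusted p of 5.7e-08 or lower for all 3). ELAVL1, or HuR, which stabilises such mRNAs, rose by 0.33 ± 0.04 SE. HNRNPD rose by 0.33 ± 0.04 SE, a call lost with the offset for GC content and length (0.05, adjusted p = 0.35, edgeR), and CPEB4 fell by 0.20, a call lost under 3 of 16 alternatives, among them leaving out shSIRT1 replicate 2 (adjusted p up to 0.31, edgeR).

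The genes most like C3 and CXCL8 in profile were sought among 13752 tested genes averaging at least 1 CPM, by the root mean square difference of log2 CPM over the 6 libraries after centring each on its shfirefly mean. For C3 these were MRGPRX3 (difference 0.112), the pseudogene FKBP9P1 (0.115) and GPR26 (0.119). For CXCL8 they included IGFBP2 (0.058), an IGF-binding protein, and PTN (0.082), the growth factor pleiotrophin.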

How the data were processed

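RNA was sequenced from 6 SW1353 samples, 3 per group, from TruSeq Stranded mRNA libraries. Trimmomatic, STAR, DESeq2 and the build GRCh38 are named by the submitters' processing notes. Their versions and the authors' annotation, read counter and strand setting: not given in the sources used here. All tests used the deposited raw counts of reads, as the authors' columns are named per the file headers. The authors' normalized counts, rounded to whole numbers and their fit statistics (scores) were not used. The deposited fold change (ratio), log2 fold change and p-values of the authors are quoted where named.

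Columns were matched to samples by name. Genes were kept by filterByExpr, scaled by TMM (factors 0.948 to 1.048) and tested on group alone with edgeR 4.0.16 in R 4.3.3 (robust quasi-likelihood test, Benjamini-Hochberg over all genes tested). SE is the absolute log2 fold change over the square root of F. Pairs of libraries differed with a chi-square per gene of 2.83 to 6.16 in the same group and 58.4 to 91.5 across them, so none was a copy of another. Count ratios are over scaled library sizes summed by group, with exact conditional intervals. Exon lengths and overlaps came from GENCODE 29, matched by Ensembl identifier without version. P-values set the difference between the groups against the spread between these samples, 3 per group, of 1 line with 1 hairpin per group. The procedure was tested on simulated data with a constant dispersion and changes in a small share of well-counted genes. That check does not cover rare genes such as IL6, or data in which many genes change.

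Genes named were the 10 above, SIRT1 and EPAS1, up to 3 higher and 3 lower per list with the largest change among called genes averaging at least 1 CPM, and the 3 nearest profiles of C3 and CXCL8 (pseudocount 0.1 CPM). Some genes that this rule names are not reported here. Any others are said to be chosen after their values were seen, or are given with counts as levels only. Of the genes said to be chosen after their values were seen, CD55 and CLU rose, IL6R and LIFR did not pass, and all others fell. The 10 genes and the lists were chosen with earlier results of these data known. SOD2, listed under more than one identifier, was left out. Alternatives were RLE, upper-quartile or no scaling factors, DESeq2 1.42.0, no filter, 1 CPM in 3 libraries, a replicate block, no robust estimation and leaving out each library; an offset for GC content and length (splines with 5 degrees of freedom) and leaving out both libraries numbered 3 were chosen after seeing the data.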

Additional observations from a re-analysis of the deposited data

How the results depend on the processing

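The falls of IL6, C3, CXCL8 and IL11 and the rise of NFKB1 kept direction and call under all alternatives that gave a value (15 for IL6, which the filter at 1 CPM removes, and 16 for the others). Log2 fold changes ran from -3.71 to -1.99 for IL6, -1.98 to -1.68 for C3, -1.50 to -1.08 for CXCL8, -0.66 to -0.49 for IL11 and 0.25 to 0.43 for NFKB1. LIF turned to -0.02 with upper-quartile factors and without both libraries numbered 3, and leaving out 1 library gave -0.0035 to 0.06. CCL2 turned to 0.08 with library totals alone, and leaving out 1 library gave -0.13 to 0.03. NFKBIA passed the test with library totals alone (0.21) and with the offset for GC content and length (0.15), so that 2 of the 10 genes were then called higher. The cause was not tested. Library totals alone called 6225 genes higher and 3021 lower, against 4449 and 4311. The summed share differed by -0.000701 percentage points over TMM-scaled sizes and by -0.000981 without NFKB1, and leaving out 1 library gave 8.14e-05 to 0.000433.

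Per length of the longest transcript, levels in shfirefly were 0.378 for IL6, 4.01 for CXCL8, 3.55 for LIF, 1.20 for C3, 11.5 for IL11, 2.54 for CCL2, 0.307 for IL1B, 9.54 for NFKB1 and 17.0 CPM per kb for NFKBIA. With library totals alone they were 0.729 for C3, 3.40 for LIF, 9.38 for IL11, 5.97 for NFKB1 and 10.7 for NFKBIA.

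Deviations of same-numbered libraries correlated at 0.06, 0.03 and 0.28 over 12753 genes, the last being the highest of all pairs across the groups. In contrast, shfirefly replicate 2 correlated best with shSIRT1 replicate 1 (0.17). With 3 libraries per group these values cannot settle whether the replicate numbers pair the libraries. With the replicate block 4711 genes were called higher and 4465 lower, and the counts among the 10 genes were as before, 1 and 4; IL6 was at -2.42 and NFKBIA at 0.09. With the block 3 IL-6 family genes and 5 genes of the NF-κB subunit list were called higher, against 1 and 3. Among the 43 other genes that the naming rule picked from the lists or as hairpin targets, 34 of 688 alternative values lost the call and none reversed. Depth limits IL6, IL1B and CXCL1, the latter pair being untested.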
